A study of Homo sapiens with 12 samples.

Results

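DNA replication and G1/S genes are described here as a set of 49 named genes in MDA-MB-231 cells kept in medium of 3 acidities. The members were chosen by name, with earlier results of these data known. All 49 were found among the 60664 genes of the count table and all 49 were among the 17544 genes with enough reads to be tested. They fall into 5 roles, namely 17 genes of origin licensing and the replicative helicase, 18 of the replication fork, 4 of nucleotide supply, 6 of the E2F and cyclin E group and 4 of chromatin and histone supply.

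The cells were an established line derived from a triple-negative breast cancer (a tumour without oestrogen and progesterone receptors and without amplified HER2) and labelled wild type, so every group shares that 1 line and its growth medium with serum. Poly(A) RNA was sequenced after 24 h in medium of pH 7.4, the control, or of pH 6.9 or pH 6.4, with 4 libraries in each group. The sample labels give pH 6.9 for the intermediate medium and the protocol text gives 6.7, and the name pH 6.9 is used here. The labels number the libraries as repeats and do not state separate cultures, so the p-values measure only the spread between these samples. In bulk RNA of this kind, fewer cells in S phase and less RNA per cell cannot be told apart.

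Replication is prepared in G1, when the origin recognition complex with CDC6 and CDT1 loads the MCM2 to MCM7 ring on DNA, and it starts when CDC45 and the GINS complex join that ring to form the moving helicase. At the fork, polymerase alpha with primase lays primers, the RFC clamp loader places PCNA, polymerases delta and epsilon copy the strands, and FEN1 and LIG1 join the pieces. Most of these genes are transcribed at the G1/S boundary by E2F activators such as E2F1 and E2F2. The retinoblastoma protein holds these activators back until cyclin D and cyclin E kinases act. E2F7 and E2F8 are atypical members of the family that act as repressors. In a proliferating tumour cell line the level of replication genes in bulk RNA follows, among other things, how many cells are in late G1 and S phase.

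The known E2F recognition word was looked for in the promoters, since it is the sequence feature that this class of genes is known for. RefSeq promoter windows on GRCh38.p14, from 250 bases before the start site to 50 after it, were found for 41 of the 49 genes, with 52 windows because some genes have several starts, and there was no entry for MCM4, MCM5, GINS4, POLD3, RPA2, RPA3, CCNE2 and E2F8. The words searched were TTTCCCGC, TTTGGCGC, TTTCGCGC and TTTGCCGC on both strands, and matches may overlap each other where the letters read the same on the opposite strand. Of the 52 windows, 22 held a word (42.31%), against 3.315% of all 35116 windows, and by gene the shares were 21 of 41 (51.22%) against 3.992%. The CCAAT word, read on both strands, was in 59.62% of the windows of these genes and in 34.61% of all windows. The 29 matches began between 187 bases before and 7 bases after the start base, and 18 of them within the 100 bases before it. In all, 6 promoters of genes described below are shown from 120 bases before the start to 30 bases after it, in RefSeq sequence, to let the word and its distance from the start be seen. The word is in capitals, and each sequence reads 5′ to 3′ along the strand of its gene. A match is a description of letters and not evidence of a bound site.
CDC6 (chr17:40287759-40287908, plus strand): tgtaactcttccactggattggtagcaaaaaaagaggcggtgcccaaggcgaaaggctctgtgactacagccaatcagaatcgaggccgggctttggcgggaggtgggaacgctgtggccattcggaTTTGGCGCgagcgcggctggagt
CDT1 (chr16:88803669-88803818, plus strand): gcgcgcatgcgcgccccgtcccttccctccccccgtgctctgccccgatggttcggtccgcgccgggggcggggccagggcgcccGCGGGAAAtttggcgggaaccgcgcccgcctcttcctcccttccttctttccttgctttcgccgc
GMNN (chr6:24775293-24775442, plus strand): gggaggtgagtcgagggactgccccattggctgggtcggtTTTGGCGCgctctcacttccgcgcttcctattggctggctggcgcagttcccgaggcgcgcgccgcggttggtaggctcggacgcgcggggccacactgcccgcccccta
GINS3 (chr16:58392351-58392500, plus strand): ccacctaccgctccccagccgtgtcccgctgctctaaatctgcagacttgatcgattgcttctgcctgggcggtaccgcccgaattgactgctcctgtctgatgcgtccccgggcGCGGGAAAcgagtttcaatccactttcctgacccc
POLA2 (chr11:65261842-65261991, plus strand): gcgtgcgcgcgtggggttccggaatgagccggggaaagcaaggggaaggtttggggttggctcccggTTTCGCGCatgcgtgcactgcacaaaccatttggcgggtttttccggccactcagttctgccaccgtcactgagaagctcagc
E2F1 (chr20:33686356-33686505, minus strand): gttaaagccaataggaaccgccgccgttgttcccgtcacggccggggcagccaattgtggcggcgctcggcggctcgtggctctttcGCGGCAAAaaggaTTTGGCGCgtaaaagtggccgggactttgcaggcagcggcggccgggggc
The word began 7 bases after the start base in CDC6 and before it in the others, by 35 bases in CDT1, 80 in GMNN, 5 in GINS3 and 53 in POLA2. E2F1, itself an E2F factor, held 2 words, 33 and 20 bases before its start. No word was found in the windows of TK1, RRM2, CCNE1, PRIM1 and E2F7. Only the exact words listed were searched, so near matches were neither marked nor counted. The stretches of CDC6, CDT1 and POLA2 each hold such a near match, tttggcgg. A window without a word is therefore not shown to lack an E2F site.

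Total counts ran from 21060767 to 50643233 per library. The library of pH 7.4 repeat 1 had 17841 detected genes and that of pH 6.9 repeat 2 had 21628, while the other 10 had from 23113 to 27384. Levels are given as CPM, read counts relative to the TMM-scaled total of the library, and every adjusted p is from edgeR's quasi-likelihood test with Benjamini-Hochberg adjustment over all 17544 genes, with a gene called at an adjusted p under 0.05. The 6 markers expected in the line summed to 5634 to 5936 CPM at pH 7.4, 5476 to 5781 at pH 6.9 and 5618 to 6231 at pH 6.4. The sum hides changes of single markers. At pH 6.4 against pH 7.4, 3 were called lower and 3 higher (14.7% and 15.6% of all genes), with log2 fold changes from -0.77 to 0.87. At pH 6.9 against pH 7.4 none of the 6 was called. Among them VIM was at 1584 to 2816 CPM. The receptor genes ESR1 and PGR were at or near 0 in every library. ERBB2, which encodes HER2, was at 66.8 to 97.6 CPM. The summed level of 4 leukocyte markers was 3.46 to 6.51 CPM at pH 7.4, 2.97 to 4.98 at pH 6.9 and 1.51 to 2.88 at pH 6.4, with CD3E at 0 throughout. That of 4 endothelial markers was 9.19 to 17.3, 11.0 to 13.6 and 13.4 to 17.7 CPM in the same order of media. For 5 luminal epithelial markers it was higher, at 262 to 352, 251 to 323 and 267 to 341 CPM. The part of these markers in the results was not tested.

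At pH 6.4 the set was lower than at pH 7.4. Of the 49 genes, 25 fell (51.0%) and 1 rose, against 14.7% of all tested genes called lower and 15.6% called higher, and 23 were not called. The median log2 fold change of the 49 was -0.43, and that of all tested genes was -0.00083. The shares differed by role, with 12 of 17 licensing and helicase genes lower (median -0.56), 7 of 18 fork genes (median -0.38), 2 of 4 nucleotide supply genes (median -0.31), 3 of 6 E2F and cyclin E genes (median -0.62) and 1 of 4 chromatin genes (median -0.38). The difference between these shares was not tested. Scaled by library size alone, 26 of the 49 were lower, and all tested genes split into 3159 lower and 2137 higher in place of 2584 and 2737. For 14 genes every pH 6.4 library lay below every pH 7.4 library, against 13.5% of all genes, and for 1 gene, E2F7, every one lay above, against 14.4%.

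These counts changed with single libraries of the pH 6.4 group. The library of pH 6.4 repeat 3 was the highest of its group for 45 of the 49 genes, and its median gene was at -0.03 on the log2 scale relative to the pH 7.4 mean, whereas the medians of repeats 1, 2 and 4 were -0.44, -0.82 and -0.60. Without it 42 genes were lower (17.6% of all genes), with all 25 lower calls kept, and the median was -0.61. For 43 genes, the 3 remaining pH 6.4 libraries then lay below every pH 7.4 library (19.8% of all genes). Without pH 6.4 repeat 2, 14 genes were lower (9.99% of all genes), and without pH 6.4 repeat 4 there were also 14 (10.3% of all genes). Leaving out repeat 3 was chosen after seeing the data, and E2F7 was higher in each of these fits.

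**Figure D1:**
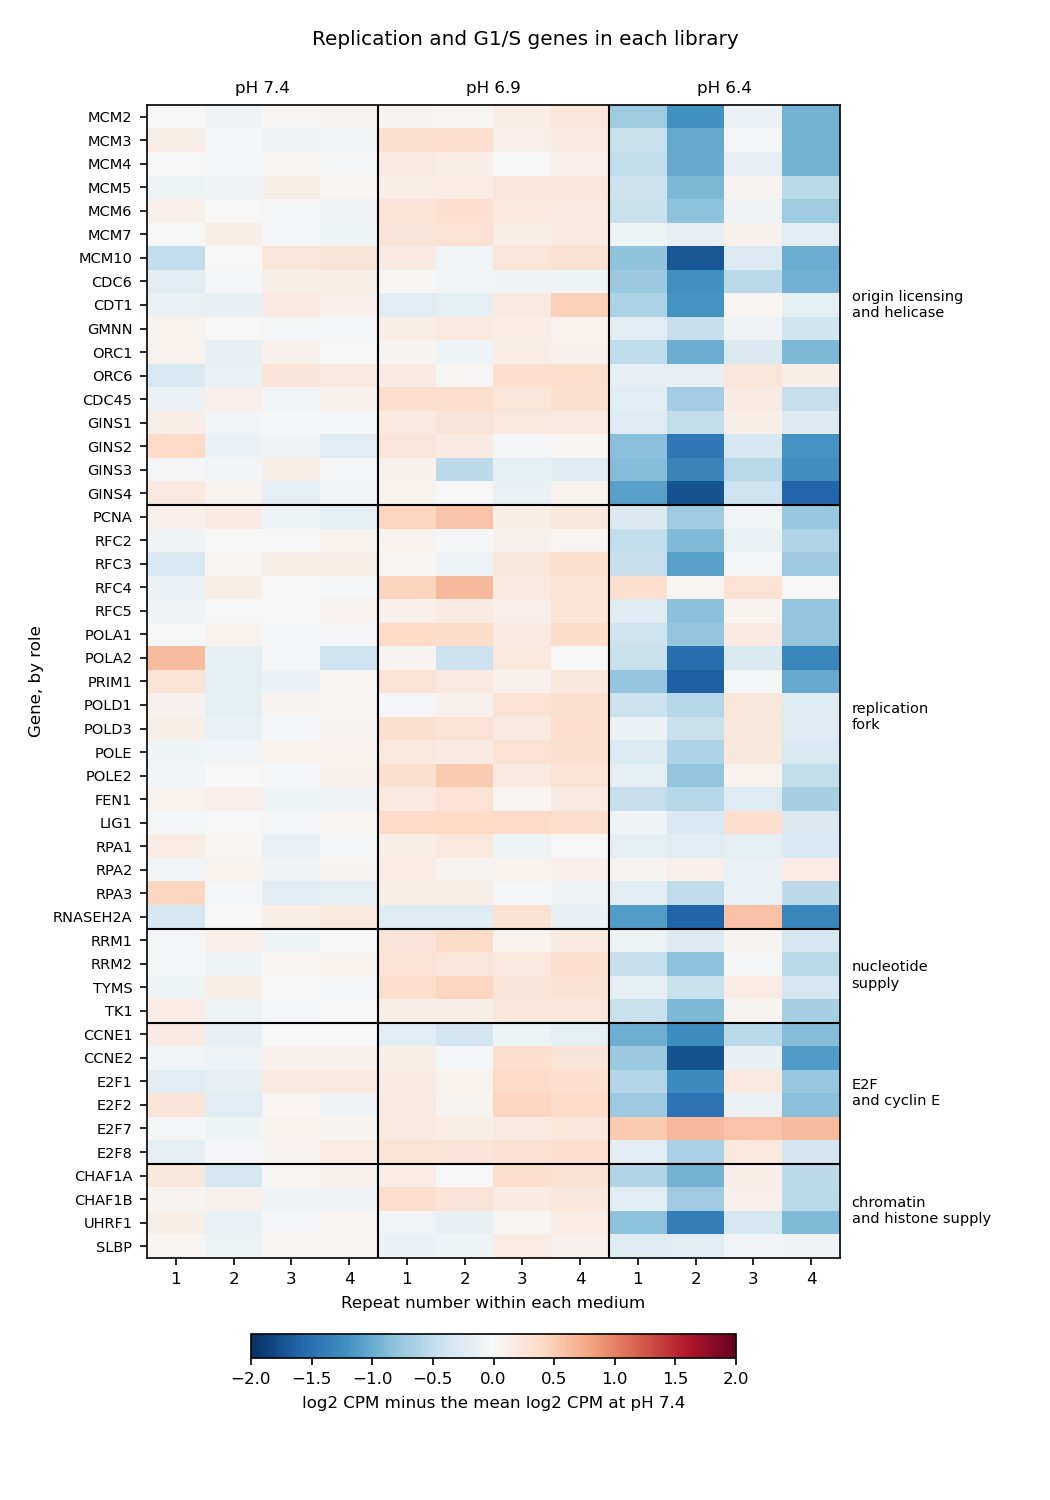
Each cell is 1 gene (rows, by role) in 1 library (columns, by medium and repeat), coloured by its log2 CPM minus the gene's mean log2 CPM at pH 7.4, with red above and blue below. The pH 6.4 libraries of repeats 1, 2 and 4 are blue in most rows, repeat 3 is pale, and E2F7 is red in all 4.

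The genes that license origins fell together in part. CDC6, the ATPase that helps load the MCM ring, is encoded at chr17:40287633-40304657 (GRCh38, as are all gene positions here). Its levels in repeats 1 to 4 were 112, 127, 141 and 143 CPM at pH 7.4, 132, 125, 124 and 123 CPM at pH 6.9 and 77.5, 56.3, 89.9 and 67.0 CPM at pH 6.4. The pH 6.4 libraries were all below the other 8, and the pH 6.9 libraries lay within the range of pH 7.4. CDC6 fell 1.8-fold at pH 6.4 (log2 fold change -0.85 ± 0.12 (SE), adjusted p = 0.000243).

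CDT1 (chr16:88803213-88809258), the other loading factor, had 22.1, 21.9, 27.1 and 25.8 CPM at pH 7.4, 20.6, 21.2, 27.3 and 33.5 CPM at pH 6.9 and 15.6, 10.5, 24.9 and 21.1 CPM at pH 6.4. Repeat 3 of pH 6.4 lay within the pH 7.4 range and the other 3 below it, and the difference was not called (log2 fold change -0.43 ± 0.22 (SE), adjusted p = 0.164). With the repeat number as a block, the same comparison was called (adjusted p = 0.0168), as was pH 6.4 against pH 6.9 (adjusted p = 0.0134). GMNN (chr6:24774931-24786099), which encodes geminin, the protein that binds CDT1 and keeps origins from being licensed again in the same cycle, had 70.1, 66.3, 64.5 and 64.9 CPM at pH 7.4, 72.9, 75.9, 73.9 and 69.8 CPM at pH 6.9 and 57.6, 48.3, 63.6 and 50.5 CPM at pH 6.4. Its pH 6.4 libraries were all below the pH 7.4 libraries, but the nearest values were close, and GMNN fell 1.21-fold (log2 fold change -0.27 ± 0.09 (SE), adjusted p = 0.0304). The GMNN call was lost without pH 7.4 repeat 1, pH 7.4 repeat 2, pH 6.4 repeat 2 or pH 6.4 repeat 4.

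Within the MCM ring, 5 of the 6 subunits were called lower against pH 7.4. MCM2, MCM3, MCM4, MCM5 and MCM6 fell, with log2 fold changes of -0.69, -0.56, -0.61, -0.42 and -0.48, and adjusted p-values from 0.00538 to 0.0426. MCM7, the sixth subunit, had 282, 306, 272 and 265 CPM at pH 7.4, 334, 343, 304 and 317 CPM at pH 6.9 and 263, 249.6, 299 and 243 CPM at pH 6.4. Its pH 6.4 and pH 7.4 libraries overlapped, with a log2 fold change of -0.09 ± 0.08 (SE), adjusted p = 0.423. Against pH 6.9 all 6 subunits were called lower, MCM7 with no overlap of libraries and a log2 fold change of -0.30 ± 0.08 (SE), adjusted p = 0.023, a call lost without repeat 1 or 2 of pH 6.9 or repeat 1, 2 or 4 of pH 6.4. MCM7 also carries 3 microRNAs on its strand (MIR25, MIR93 and MIR106B), and it is named here after its values were seen. The MCM3 call was lost without pH 7.4 repeat 1, pH 6.4 repeat 2 or pH 6.4 repeat 4, and the MCM5 call was lost in 10 of the 12 fits that left out 1 library, being kept without pH 7.4 repeat 1 and without pH 6.4 repeat 3.

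MCM10, which helps activate the helicase, fell from a mean of 43.7 to 23.8 CPM (log2 fold change -0.88 ± 0.23 (SE), adjusted p = 0.0109). ORC1, the largest subunit of the origin recognition complex, fell from 24.2 to 15.4 CPM (log2 fold change -0.64 ± 0.14 (SE), adjusted p = 0.00356). ORC6, the smallest, was at 27.6 ± 4.89 and 27.7 ± 3.98 CPM (SD, n = 4) with a log2 fold change of 0.008, adjusted p = 0.973, and its sign has no meaning at this size. CDC45, the helicase cofactor, was at 34.2 ± 2.58 CPM at pH 7.4 and 28.3 ± 7.33 CPM at pH 6.4 (SD, n = 4) and was not called (log2 fold change -0.27, adjusted p = 0.167).

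The GINS complex, a ring of 4 subunits in the helicase, held the 3 lowest log2 fold changes of the 49 genes. GINS4 (chr8:41529206-41545046) had 60.0, 55.2, 45.8 and 50.5 CPM at pH 7.4, 55.2, 52.3, 47.7 and 55.0 CPM at pH 6.9 and 24.8, 15.8, 39.3 and 17.4 CPM at pH 6.4. GINS3 (chr16:58295080-58406144) had 15.9, 15.5, 17.4 and 15.7 CPM at pH 7.4, 17.1, 11.2, 14.3 and 13.6 CPM at pH 6.9 and 8.8, 6.43, 10.9 and 6.85 CPM at pH 6.4. For both genes the pH 6.4 libraries lay below every library of pH 7.4 and of pH 6.9, with repeat 3 the highest of the 4. GINS4 fell 2.17-fold (log2 fold change -1.12 ± 0.22 (SE), adjusted p = 0.00163) and GINS3 fell 1.95-fold (log2 fold change -0.96 ± 0.17 (SE), adjusted p = 0.000949). GINS2 fell 1.87-fold (log2 fold change -0.91, adjusted p = 0.00368), whereas GINS1 was at 34.7 ± 2.13 and 30.1 ± 5.65 CPM (SD, n = 4) and was not called (log2 fold change -0.20, adjusted p = 0.194).

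**Figure D2:**
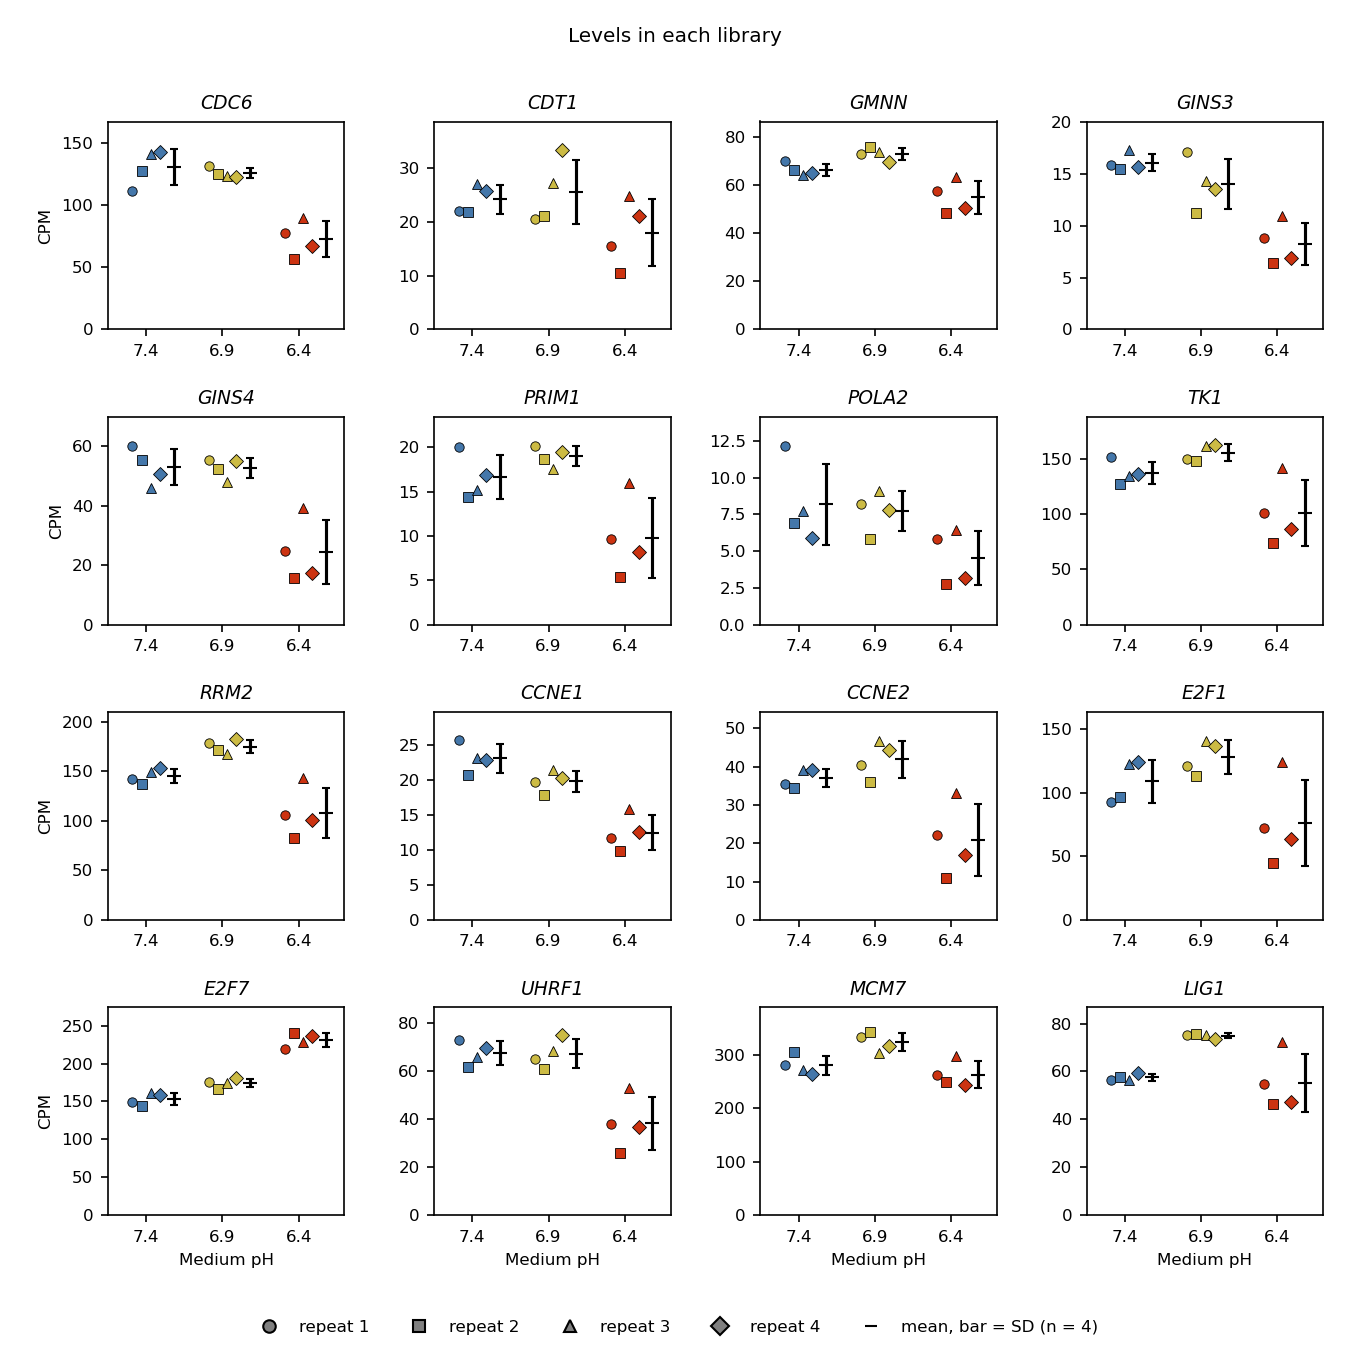
CPM in each library (vertical axes, each starting at 0) by medium pH for 16 genes, with 1 symbol per repeat number and the mean and SD (n = 4) as a bar. GINS4 runs from 15.8 to 39.3 CPM at pH 6.4, below every other library, while E2F7 rises to between 219 and 240.0 CPM.

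Of the 18 fork genes, POLA2 and PRIM1 had the lowest log2 fold changes. POLA2 (chr11:65261762-65305589), the accessory subunit of polymerase alpha, had 12.2, 6.95, 7.73 and 5.89 CPM at pH 7.4, 8.2, 5.85, 9.09 and 7.82 CPM at pH 6.9 and 5.8, 2.76, 6.45 and 3.19 CPM at pH 6.4. PRIM1 (chr12:56731596-56752373), the catalytic primase subunit, had 20.1, 14.5, 15.2 and 16.9 CPM at pH 7.4, 20.2, 18.7, 17.6 and 19.4 CPM at pH 6.9 and 9.68, 5.35, 16.0 and 8.22 CPM at pH 6.4. In both genes repeat 3 of pH 6.4 lay within the pH 7.4 range, while repeats 1, 2 and 4 were below it. POLA2 fell 1.79-fold (log2 fold change -0.84 ± 0.29 (SE), adjusted p = 0.037) and PRIM1 fell 1.7-fold (log2 fold change -0.76 ± 0.24 (SE), adjusted p = 0.0264). The POLA2 call was lost without pH 7.4 repeat 1, pH 7.4 repeat 3, pH 6.4 repeat 2 or pH 6.4 repeat 4, and the PRIM1 call without pH 7.4 repeat 1 or without pH 6.4 repeat 1, 2 or 4. Both overlap another gene on their own strand, which for PRIM1 includes the abundant NACA, so their counts may share reads. The other subunits of the same complex were not called, with log2 fold changes of -0.40 for POLA1, the catalytic subunit of polymerase alpha, and -0.16 for PRIM2, the large primase subunit, which is not one of the 49.

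Of the clamp and its loader, PCNA, the sliding clamp, fell from 173 ± 18.9 to 128 ± 30.1 CPM (SD, n = 4, log2 fold change -0.43, adjusted p = 0.038). RFC2 and RFC3, loader subunits, fell with log2 fold changes of -0.51 (adjusted p = 0.00572) and -0.54 (adjusted p = 0.035). RFC5 was not called (log2 fold change -0.40, adjusted p = 0.0678), but was with the repeat block (adjusted p = 0.04). RFC4, which forms the same loader, had the opposite sign at a log2 fold change of 0.17, adjusted p = 0.275. The PCNA call was lost without repeat 1 or 2 of pH 7.4 or repeat 2 or 4 of pH 6.4, and the RFC3 call without repeat 2, 3 or 4 of pH 7.4 or repeat 1, 2 or 4 of pH 6.4.

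Genes of the copying polymerases were not called at pH 6.4 against pH 7.4. The log2 fold changes were -0.22 and -0.13 for POLD1 and POLD3 of polymerase delta, and -0.22 and -0.31 for POLE and POLE2 of polymerase epsilon. Without pH 6.4 repeat 3, these 4 genes and POLA1 were all called lower against pH 7.4 (adjusted p from 0.000222 to 0.0349). Against pH 6.9, POLA1 (adjusted p = 0.0113), POLD3 (adjusted p = 0.0302), POLE and POLE2 (adjusted p = 0.012) were lower at pH 6.4, and the POLD3 call was lost without repeat 1, 2 or 4 of pH 6.9 or repeat 1, 2 or 4 of pH 6.4. FEN1, the nuclease that trims primer flaps, fell 1.4-fold (log2 fold change -0.48 ± 0.09 (SE), adjusted p = 0.00174). LIG1, the ligase that seals the nicks, was at 57.5 ± 1.37 and 55.2 ± 12.1 CPM (SD, n = 4, log2 fold change -0.06, adjusted p = 0.754). Of the single-strand binding complex, RPA1 fell slightly (-0.23, adjusted p = 0.0422 as log2 fold change), a call lost in 8 of the 12 fits that left out 1 library, namely repeats 1, 2 and 4 of pH 7.4 and of pH 6.4 and repeats 1 and 4 of pH 6.9. RPA2 was not called (0.04, adjusted p = 0.747), and RPA3 was not called either (adjusted p = 0.0629), but was called lower with the repeat block (adjusted p = 0.0247), by DESeq2, with library size scaling, with repeats 1 and 2 only, and without repeat 3 or 4 of pH 7.4 or repeat 3 of pH 6.4. RNASEH2A, a subunit of the enzyme that removes RNA from DNA, was too low to read, between 0.28 and 1.27 CPM, and overlaps THSD8 on the same strand.

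**Figure D3:**
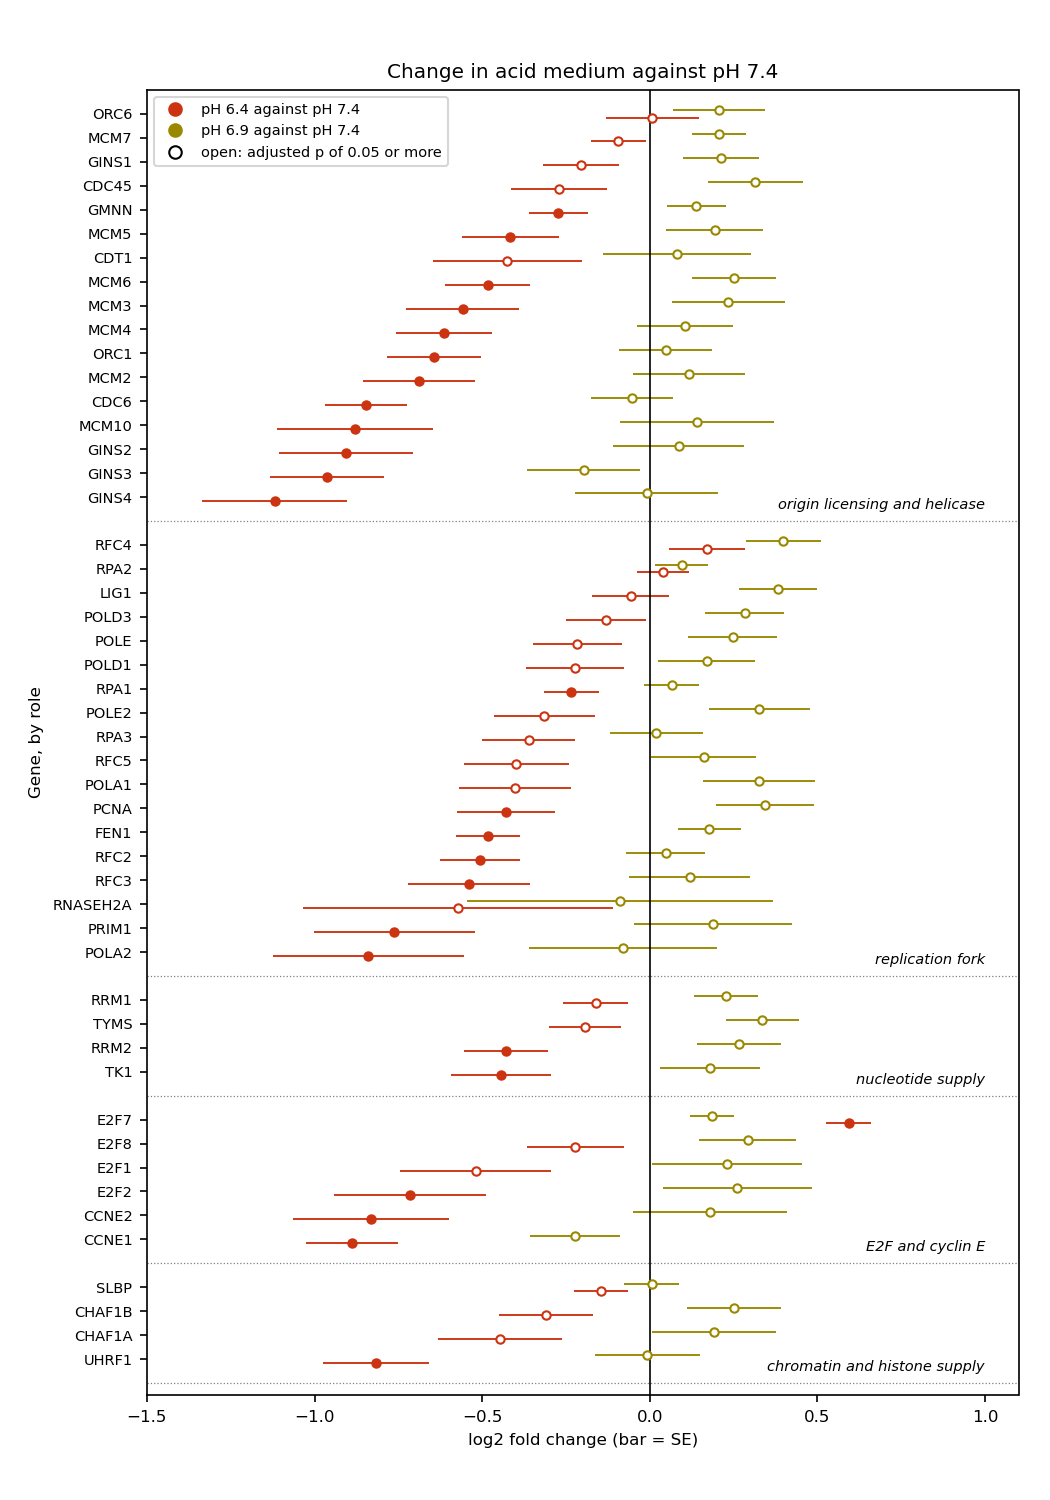
Log2 fold change (horizontal axis, bar = SE) of each gene at pH 6.4 against pH 7.4 (red) and at pH 6.9 against pH 7.4 (ochre), by role, with filled points for an adjusted p under 0.05. Red points lie left of 0 for 45 of 49 genes and ochre points right of it for 42, and no ochre point is filled.

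The nucleotide supply genes fell at pH 6.4 in 2 of 4 cases. TK1 (chr17:78174075-78187233), the thymidine kinase of the salvage route, had 151, 127, 134 and 136 CPM at pH 7.4, 149, 148, 162 and 162 CPM at pH 6.9 and 101, 73.6, 142 and 86.7 CPM at pH 6.4. RRM2 (chr2:10120698-10131419), the regulated subunit of ribonucleotide reductase, had 143, 137, 149 and 153 CPM at pH 7.4, 178, 172, 167 and 182 CPM at pH 6.9 and 105, 82.5, 143 and 100.4 CPM at pH 6.4. For both genes repeats 1, 2 and 4 of pH 6.4 were below every pH 7.4 library and repeat 3 was within their range. The log2 fold change was -0.44 ± 0.15 (SE), adjusted p = 0.0357 for TK1, lost without repeat 1, 3 or 4 of pH 7.4 or repeat 1, 2 or 4 of pH 6.4. For RRM2 it was -0.43 ± 0.12 (SE), adjusted p = 0.0177, lost without repeat 2 or repeat 4 of pH 6.4. RRM1, the large reductase subunit, and TYMS, the thymidylate synthase, were not called, at -0.16, adjusted p = 0.222 and -0.19, adjusted p = 0.196 as log2 fold changes.

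Both cyclin E genes fell. CCNE1 (chr19:29811898-29824308), the partner of CDK2 at the G1/S boundary, had 25.7, 20.7, 23.1 and 22.8 CPM at pH 7.4, 19.7, 17.8, 21.4 and 20.2 CPM at pH 6.9 and 11.7, 9.77, 15.8 and 12.6 CPM at pH 6.4. CCNE2 (chr8:94879770-94896678), its paralog, had 35.6, 34.3, 39.1 and 39.0 CPM at pH 7.4, 40.5, 35.9, 46.7 and 44.4 CPM at pH 6.9 and 22.1, 11.0, 33.2 and 16.8 CPM at pH 6.4. All pH 6.4 libraries of both genes lay below all pH 7.4 libraries, with repeat 3 nearest to them. CCNE1 fell 1.85-fold (log2 fold change -0.89 ± 0.14 (SE), adjusted p = 0.000371) and CCNE2 fell 1.78-fold (log2 fold change -0.83 ± 0.23 (SE), adjusted p = 0.0146).

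The E2F genes went in different directions. E2F7 (chr12:77021247-77065580), an atypical E2F that represses E2F targets, was the only one of the 49 called higher, with 149.5, 144, 161 and 158 CPM at pH 7.4, 176, 167, 174 and 180.3 CPM at pH 6.9 and 219, 240.0, 228 and 237 CPM at pH 6.4. Its pH 6.4 libraries were all above the other 8, repeat 3 included. E2F7 rose 1.51-fold against pH 7.4 (log2 fold change 0.59 ± 0.07 (SE), adjusted p = 4.83e-05) and 1.33-fold against pH 6.9 (log2 fold change 0.41 ± 0.07 (SE), adjusted p = 0.00364). E2F1 (chr20:33675683-33686404), an activator, had 92.6, 96.2, 123 and 124 CPM at pH 7.4, 121, 113, 141 and 137 CPM at pH 6.9 and 71.8, 44.7, 124 and 63.5 CPM at pH 6.4. Repeat 3 of pH 6.4 matched the highest pH 7.4 libraries and the other 3 lay below all of them, and the difference was not called (log2 fold change -0.52 ± 0.22 (SE), adjusted p = 0.0946), but it was called with the repeat block (adjusted p = 0.0123) and without that library (-0.86, adjusted p = 0.000668). E2F2, the other activator, fell from 8.83 to 5.38 CPM (log2 fold change -0.71, adjusted p = 0.0272), a call lost without repeat 1 or 3 of pH 7.4 or repeat 1, 2 or 4 of pH 6.4. E2F8, the other atypical factor, was not called (log2 fold change -0.22, adjusted p = 0.27).

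Of the chromatin genes, UHRF1 (chr19:4903080-4962154), which brings the maintenance DNA methyltransferase to newly copied DNA, had 72.9, 61.6, 65.8 and 69.5 CPM at pH 7.4, 64.8, 60.8, 68.2 and 74.9 CPM at pH 6.9 and 38.1, 25.8, 52.7 and 36.5 CPM at pH 6.4. Its pH 6.4 libraries were all below the other 8, and UHRF1 fell 1.76-fold (log2 fold change -0.82 ± 0.16 (SE), adjusted p = 0.00164). CHAF1A and CHAF1B, of the complex that places histones behind the fork, had log2 fold changes of -0.45 and -0.31 and were not called (adjusted p = 0.0818 and 0.11). SLBP, which binds histone messenger RNA, was at -0.15, adjusted p = 0.196. With the repeat block CHAF1A (adjusted p = 0.0103) and SLBP (adjusted p = 0.0428) were called lower.

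In the milder medium the estimates lay on the other side. No gene of the set was called at pH 6.9 against pH 7.4, where 0.41% of all genes were called lower and 0.313% higher. Even so, 42 of 49 log2 fold changes were above 0, against 9083 of all 17544 tested genes. The median was 0.18 (0.0093 over all tested genes). At an unadjusted p under 0.05 there were 11 higher and 0 lower (6.19% and 5.73% of all genes), and DESeq2 called 1 higher (1.57% of all genes). For 16 genes every pH 6.9 library was above every pH 7.4 library, against 5.18% of all genes. RFC4 had the largest estimate, with 48.0, 57.0, 52.2 and 50.8 CPM at pH 7.4 and 70.7, 81.8, 58.9 and 62.7 CPM at pH 6.9 (log2 fold change 0.40 ± 0.11 (SE), adjusted p = 0.132). LIG1 followed with 56.3, 57.7, 56.6 and 59.3 CPM at pH 7.4 and 75.3, 75.7, 75.2 and 73.4 CPM at pH 6.9 (log2 fold change 0.38 ± 0.12 (SE), adjusted p = 0.163). Neither gene's pH 6.9 libraries overlapped those of pH 7.4, and both are named after their values were seen. Without pH 6.4 repeat 3, a library of neither group, LIG1 (adjusted p = 0.0152) and TYMS (adjusted p = 0.0341) were called higher (0.86% of all genes). CCNE1, CDC6, GINS3, GINS4, POLA2, RNASEH2A and UHRF1 had estimates below 0, from -0.22 for CCNE1 to -0.0068 for UHRF1.

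Set against pH 6.9 rather than pH 7.4, the pH 6.4 libraries were lower in more genes. The count was 39 of 49 lower and 1 higher (8.2% and 8.83% of all genes), with a median log2 fold change of -0.62, and for 35 genes no library overlapped (10.8% of all genes). By role 15 of 17 licensing and helicase genes, 12 of 18 fork genes, 4 of 4 nucleotide supply genes, 5 of 6 E2F and cyclin E genes and 3 of 4 chromatin genes were lower. RRM1 (log2 fold change -0.39, adjusted p = 0.0149), TYMS (-0.53, adjusted p = 0.007), POLE (-0.46, adjusted p = 0.0286) and LIG1 (-0.44, adjusted p = 0.0206) passed the threshold here and not against pH 7.4, and this comparison shares its pH 6.4 libraries with the other. The call of TYMS held without any 1 library of the 12. Those of RRM1 (adjusted p = 0.0564 and 0.0548) and LIG1 (adjusted p = 0.0759 and 0.0718) were lost without pH 6.4 repeat 2 or repeat 4. That of POLE was lost without repeat 1, 3 or 4 of pH 6.9 or repeat 1, 2 or 4 of pH 6.4 (adjusted p from 0.0563 to 0.0876). CDT1, ORC6, RFC4, POLA2, POLD1, RPA2, RPA3, RNASEH2A and SLBP were not called. With the repeat block POLA2 (adjusted p = 0.00832), POLD1 (adjusted p = 0.0114) and RPA3 (adjusted p = 0.0214) were also lower. Without pH 6.4 repeat 4 the count dropped to 24 (3.04% of all genes), without repeat 2 of pH 6.4 it was 26 (2.86% of all genes), and without repeat 3 it was 44 (13.8% of all genes), with all 39 kept.

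For most genes the means did not fall in step with the pH. The highest mean was at pH 6.9 for 41 genes, at pH 7.4 for 7 and at pH 6.4 for E2F7, and the lowest was at pH 6.4 for 45. The order was not counted over all genes, and no difference of these genes between pH 6.9 and pH 7.4 was called. The 7 with the highest mean at pH 7.4 were CDC6, GINS3, GINS4, POLA2, RNASEH2A, CCNE1 and UHRF1, and the lowest mean was at pH 7.4 for ORC6, RFC4, RPA2 and E2F7. A contrast of pH 6.9 with the midpoint of the other media, added after this order was seen, called no gene of the set and none of all 17544 (0% lower and 0% higher), with 39 of the 49 higher at an unadjusted p under 0.05 (6.03% of all genes) and 7 called higher by DESeq2 (0.291% of all genes). Its median log2 difference was 0.40. Without pH 6.4 repeat 3, a library left out after the data were seen, it called 37 of the 49 higher, against 3.36% of all genes. The contrast is also above 0 where a gene falls only at pH 6.4, so it cannot show a peak at pH 6.9. Among the 37 were CDC6, GINS4 and UHRF1, which had their highest mean at pH 7.4, while the others had theirs at pH 6.9.

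The library of pH 6.4 repeat 3 was close to the control in all 5 roles and not in a list of mitotic genes. Its role medians, relative to the pH 7.4 mean on the log2 scale, were -0.08 for licensing and helicase, 0.011 for the fork, 0.05 for nucleotide supply, 0.04 for E2F and cyclin E and 0.024 for chromatin. The licensing medians of repeats 1, 2 and 4 were -0.50, -1.01 and -0.89. Across a list of 40 mitotic genes the medians of repeats 1 to 4 at pH 6.4 were 0.26, 0.35, 0.37 and 0.43, all above the control, so repeat 3 did not stand apart there. Its TMM scaling factor was 1.02, in the range of the other media, while those of repeats 1, 2 and 4 were 0.984, 0.916 and 0.939, and the part of this in the result was not tested. With that library left out the lower calls by role were 15 of 17, 16 of 18, 3 of 4, 5 of 6 and 3 of 4 in the order above, and MCM7 remained uncalled (-0.16, adjusted p = 0.115).

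**Figure D4:**
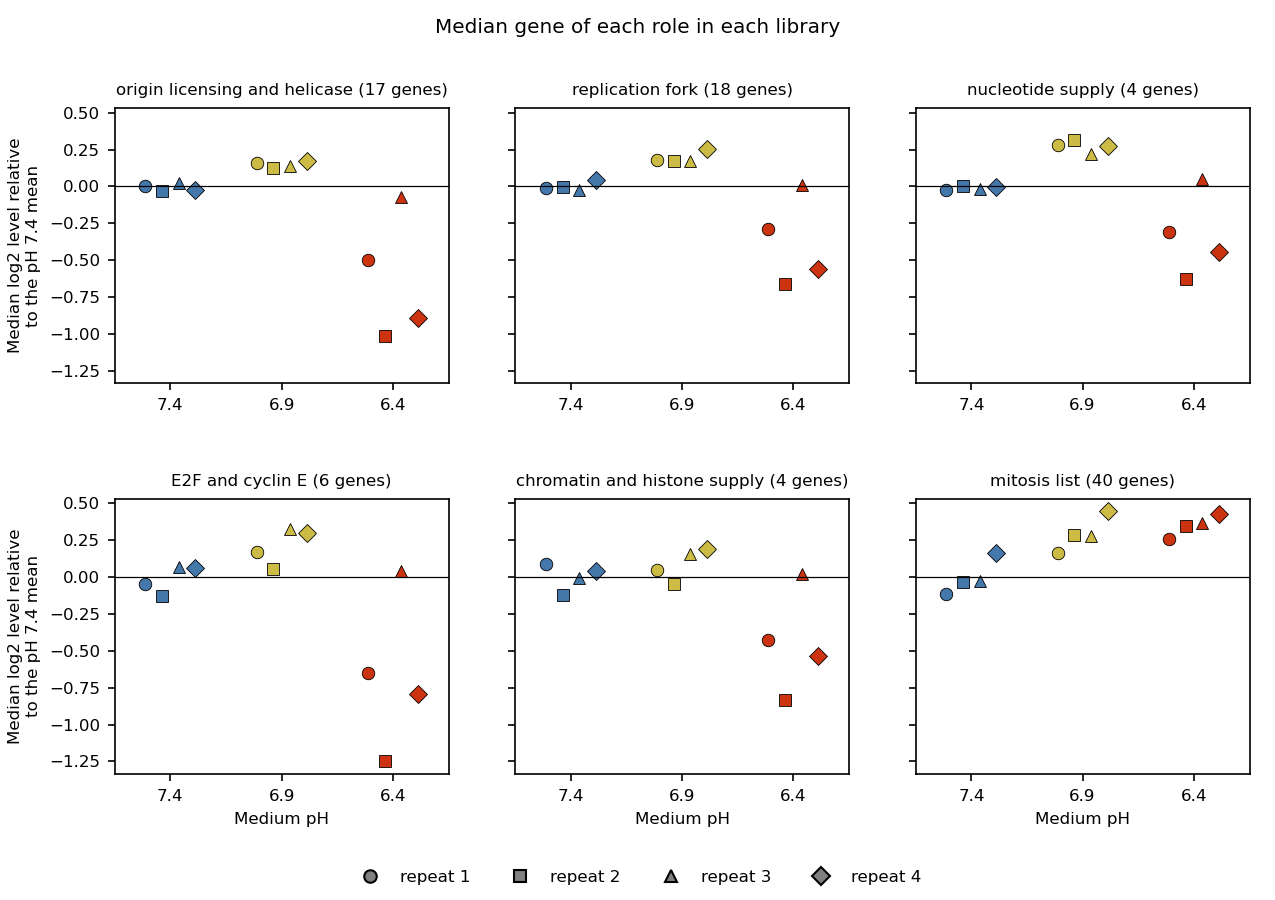
Median log2 level relative to the pH 7.4 mean (vertical axis) over the genes of each role and over the 40 mitotic genes, by medium pH, with 1 symbol per repeat. At pH 6.4 the triangle of repeat 3 lies near 0 in all 5 roles while the other 3 symbols lie below, and in the mitotic list all 4 are between 0.26 and 0.43.

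The balance between partners was compared within each library as a log2 ratio, with 8 ratios chosen after the values were seen and 24 two-sided exact permutation tests. The smallest p that 4 libraries against 4 allow is 0.0286, and the smallest adjusted value was 0.0857, so no ratio passed the threshold after Benjamini-Hochberg adjustment. With that floor, passing over 24 tests would need many tests tied at it, so the lack of a pass decides nothing about the ratios. In the following ratios the 4 pH 6.4 libraries did not overlap the 4 pH 7.4 libraries. MCM7 over the mean of MCM2 to MCM6 was higher by 0.50, E2F7 over E2F1 by 1.20 and RFC4 over the mean of RFC2, RFC3 and RFC5 by 0.69, and GINS4 over GINS1 was lower, with a difference of -0.99. Between pH 6.4 and pH 6.9 the MCM7, E2F7 and GINS4 ratios did not overlap either, with differences of 0.47, 1.25 and -0.77. The RFC4 ratio overlapped there, with a difference of 0.41. CCNE2 over CCNE1 did not overlap between pH 6.9 and pH 7.4, with a difference of 0.40. The ratio of CDT1 to GMNN overlapped in all 3 comparisons, with differences from -0.21 to -0.08.

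Other genes of the same pathways were taken from 5 lists of 78 genes that hold none of the 49. At pH 6.4 against pH 7.4, 25 of the 78 fell and 12 rose, against 14.7% and 15.6% of all tested genes, with a median log2 fold change of -0.15. The counts were 3 lower and 1 higher of 13 for origins, 6 and 3 of 19 for the fork and its checkpoint, 5 and 3 of 16 for nucleotide supply, 10 and 5 of 20 for G1/S control and 1 and 0 of 10 for chromatin at the fork. ORC5, another origin recognition subunit, fell from 25.8 to 17.2 CPM (log2 fold change -0.58, adjusted p = 0.000419). TIPIN, of the fork protection complex, fell from 16.8 to 7.37 CPM (-1.19, adjusted p = 8.81e-05). FBXW7, the ubiquitin ligase subunit that marks cyclin E for destruction, rose from 25.0 to 41.1 CPM (0.72, adjusted p = 0.00146). CCND2, which encodes cyclin D2, had a larger change in the same list at a level too low for the naming rule, from 0.47 to 4.75 CPM (3.31, adjusted p = 0.00244), and is named after its values were seen. HELLS, a chromatin remodeller, fell from 64.7 to 33.4 CPM (-0.95, adjusted p = 0.0109).

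The mitotic list moved the other way at pH 6.4 against pH 7.4. Of its 40 genes 22 rose and 1 fell, against 15.6% and 14.7% of all tested genes, with a median log2 fold change of 0.33. BUB1, a spindle checkpoint kinase, rose from 165 to 290.4 CPM (log2 fold change 0.82, adjusted p = 8.81e-05), and NEK2, a centrosome kinase, from 43.9 to 75.7 CPM (0.79, adjusted p = 0.000123). HMMR, a spindle protein, was the 1 that fell (-0.76, adjusted p = 0.0202), named after its value was seen. At pH 6.9 against pH 7.4, 4 of the 40 rose (0.313% of all genes) and the median was 0.29, a sign shared with the replication genes in that medium. Between pH 6.4 and pH 6.9 the list differed little, with 6 genes higher and 3 lower at pH 6.4 (8.83% and 8.2% of all genes). The median there was 0.075. The difference between the lists was not tested.

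Per kilobase of merged exons, the most abundant gene of the set at pH 7.4 was PCNA at 117 CPM per kb, followed by MCM3 at 92.4, TYMS at 77.2, TK1 at 73.6 and MCM7 at 64.1. The lowest were RNASEH2A at 0.235, POLA2 at 1.43 and E2F2 at 1.62 CPM per kb. The 6 subunits of the MCM ring ranged from 12.3 for MCM5 to 92.4 CPM per kb for MCM3, and MCM5 also has the longest merged exons of them, which lowers its value per kb. Among the E2F genes, E2F1 was above E2F7 per kb at pH 7.4 (43.5 and 24.3), and at pH 6.4 the means were in the other order (30.3 and 36.7), although E2F1 stayed above E2F7 in pH 6.4 repeat 3 and its change was not called.

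The E2F word was present in genes that fell and in genes that were not called. Of the 21 genes with an E2F word, 12 fell at pH 6.4 and 0 rose, with a median log2 fold change of -0.48. Of the 20 with a promoter entry and none of the exact words searched, 9 fell and 1 rose, with a median of -0.41. Over all 49 genes 51.0% fell, and over all tested genes 14.7% were called lower and 15.6% higher. This is a description, since no test of the difference between genes with and without the word was made. In GENCODE release 29 all 49 genes are protein-coding, 13 overlap another gene on their own strand and 22 overlap one on the other strand, and 7 have pseudogenes by symbol, namely PCNA, RFC3, RFC5, FEN1, RPA2, RRM2 and TYMS, so their counts may hold reads of a neighbour or copy.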

How the data were processed

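Poly(A) RNA of MDA-MB-231 was sequenced in 12 libraries, 4 for each of 3 media. The authors deposited unnormalized read counts for each gene, made by aligning with STAR to GRCh38.p13 (hg38) and counting with featureCounts, per the submitters' processing notes. Libraries came from a stranded poly(A) kit on a NextSeq500, per the labels' protocols. Not given in the sources used here: program versions, strand setting, multimapping. No library was a copy of another, over 66 pairs.

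For this work edgeR 4.0.16 was used under R 4.3.3. Genes were filtered with filterByExpr, scaled with TMM and fitted with 1 term per medium over all 12 libraries (9 residual degrees of freedom). edgeR's robust quasi-likelihood test gave the Benjamini-Hochberg adjusted p-values over 17544 genes, and the SE gives the precision of an estimate. The SE is the absolute log2 fold change over the square root of that test's F statistic, so it is not independent of the p-value. Depth ran from 21060767 to 50643233 counts. A check on simulated data was run first. The genes and lists were chosen with earlier results of these data known. Per role, the rule gave library values to the 2 largest called falls and the largest called rise at pH 6.4 with at least 5 CPM in the higher group, and to CDC6, CDT1, GMNN, CCNE1, CCNE2, E2F1 and E2F7. From each pathway list it named the called gene with the largest change and at least 5 CPM, and from the mitotic list the top 2; 1 gene so named is not reported here. Ratios were compared with exact permutation tests.

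Same-numbered libraries deviated together, with correlations from 0.264 to 0.470 between pH 6.4 and pH 6.9 and from 0.113 to 0.262 between pH 6.4 and pH 7.4, over 0.1 in every pair, so the repeat block is given where it changes a call. Between pH 6.9 and pH 7.4 they ran from 0.0798 to 0.352. Repeats 1 and 2 also deviated together across media, with correlations from 0.124 to 0.247, as did repeats 3 and 4, from 0.157 to 0.2405. All pairs of repeat 1 or 2 with repeat 3 or 4 were below 0, from -0.438 to -0.0706. The shared unit may therefore be wider than the repeat number, and what it stands for was not tested. Alternatives were DESeq2 1.42.0, library size scaling, other filters, no robust step, the block, fewer libraries and each library left out.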

Additional observations from a re-analysis of the deposited data

Results flagged for a closer look

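In 6 of 147 groups of 4 libraries, 1 library stood apart from the other 3 of its medium by Dixon's test, and chance alone flags about 1 in 20 groups. GINS1 was high in pH 7.4 repeat 1 at 37.9 CPM, with the next library at 33.9. POLA1 was low in pH 6.9 repeat 3 at 61.5 CPM, with the next at 70.4. POLD1 was low in pH 7.4 repeat 2 at 53.1 CPM, with the next at 62.2. RNASEH2A was high in pH 6.9 repeat 3 at 1.05 CPM, with the next at 0.763, and in pH 6.4 repeat 3 at 1.27 CPM, with the next at 0.39. SLBP was low in pH 7.4 repeat 2 at 114 CPM, with the next at 126.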

How the results depend on the processing

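At pH 6.4 against pH 7.4, 16 genes of the 49 were lower with only these media in the fit (11.6% of all genes), 16 without the 2 libraries with the fewest genes (15.1%), 28 with repeats 1 and 2 only (9.86%) and 3 with repeats 3 and 4 only (4.12%), and leaving out each library gave 14 to 42 and a median of -0.61 to -0.31. At pH 6.9 against pH 7.4 the genes called higher were 1 with DESeq2 (1.57% of all genes), 2 with only these media (0.656%) and 0 to 2 with a library left out. At pH 6.4 against pH 6.9, repeats 3 and 4 only called 0 lower and 0 higher, as over all 17171 genes tested there, and leaving out each library gave 24 to 44 lower. For pH 6.9 against the midpoint, the counts higher were 7 with DESeq2 (0.291% of all genes), 4 without a filter (0.0281%) and 0 to 37 with a library left out, and the median was 0.47 with repeats 1 and 2 only, 0.31 with repeats 3 and 4 only and 0.33 to 0.49 with a library left out. The causes were not tested, beyond fewer libraries where some were left out. No value reversed its direction past the threshold. With the replicate block, 31 genes were lower at pH 6.4 against pH 7.4 (20.2% of all genes) and 43 against pH 6.9 (15%). The same block called 1 gene higher at pH 6.9 against pH 7.4 (2.96% of all genes), RFC4 (adjusted p = 0.04997, edgeR). Same-numbered libraries of those media correlated at 0.0798 to 0.352, and the labels do not say what the number stands for. Over all media, 10 of the 12 libraries correlated best with their own number. The block did not change the other calls of the named genes beyond those given above. RNASEH2A, from 0.280 to 1.27 CPM, had the lowest level of the set, and the reason was not tested. With 4 libraries per medium no permutation test goes below 0.0286.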
